A study of Homo sapiens with 9 samples.

Results

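The TRIM genes encode proteins with a tripartite motif, usually a RING finger followed by B-boxes and a coiled coil, and most act as ubiquitin ligases. The numbered TRIM genes were taken as every entry of the expression table whose symbol is TRIM followed by digits alone, and the rule found 66 genes among 22295 entries, of which 19932 are gene symbols and 2363 are loci assembled from the reads. U251 is a human cell line established from a glioblastoma, and PTBP1 is an RNA-binding protein that regulates splicing. Cells of the group sh-Luci-3d carried a lentivirus with an shRNA directed against luciferase for 3 days, and cells labelled sh-Ptbp1-3d or sh-Ptbp1-7d carried one directed against PTBP1 for 3 or 7 days. Each group had 3 libraries, and all 3 groups were U251 cells infected with lentivirus. The sh-Luci-3d libraries are also called controls. Neuronal induction medium, which contains forskolin and dorsomorphin, was used from day 2, so the 7 day cells had spent longer in it. No sh-Luci library of 7 days was analysed here, so knockdown, time and medium cannot be told apart in any comparison with sh-Ptbp1-7d. Nothing in the labels says that the 3 libraries of a group came from separate cultures, and p-values then measure only the spread between these libraries.

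RING finger TRIM proteins transfer ubiquitin to bound substrates, which are chosen by a C-terminal domain such as the B30.2 domain, the NHL repeats or the PHD and bromodomain pair. A subset of the family is induced by interferon and acts against viruses, either by binding viral proteins or by modifying the sensors and adaptors that start interferon production. Other members are expressed without such a stimulus and serve in chromatin silencing, microtubule binding or protein turnover. The members were separated here by a list of 10 interferon-induced genes, TRIM5, TRIM14, TRIM21, TRIM22, TRIM25, TRIM26, TRIM34, TRIM38, TRIM56 and TRIM69, and the remaining 56 are called other members. The list was chosen with earlier results of these data known.

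Values are FPKM, which counts fragments per kilobase of a transcript after scaling for the mapped fragments of each library, so levels can be set side by side between genes. The targeted gene PTBP1 was at 115.7 ± 7.58 FPKM in the control libraries, 63.9 ± 2.67 FPKM after 3 days of knockdown and 50.5 ± 0.645 FPKM after 7 days (SD, n = 3 each), and its libraries did not overlap between groups. The sequencing depth is unknown, and the table sums to between 367412 and 404922 FPKM per library. Of 9 glioma markers 7 had a mean over 1 FPKM in each group, GFAP and S100B being the exceptions, and their sum lay between 4470 and 4890 FPKM in the 3 day libraries and between 1390 and 1510 FPKM in the 7 day libraries, mostly through VIM. Between 3 and 7 days of knockdown, 3 of the 9 fell and 1 rose past an FDR below 0.01. Over all entries 15.5% fell and 20.3% rose. S100B was the riser, from 0.115 to 0.797 FPKM (limma, adjusted p = 0.00202). SOX2 rose against sh-Luci-3d, from 105.7 to 144.8 FPKM (limma, adjusted p = 0.00184). The 8 neuron markers summed to between 266 and 361 FPKM at 3 days and between 159 and 166 FPKM at 7 days, mostly through TUBB3, with group means of 261.3 and 316.9 FPKM at 3 days and 118.2 FPKM at 7 days. MAP2 went the other way, rising from 20.34 to 38.89 FPKM between 3 and 7 days of knockdown (limma, adjusted p = 0.00058), and SNAP25 rose against sh-Luci-3d, from 1.27 to 4.32 FPKM (limma, adjusted p = 9.16e-05). GAP43 fell between 3 and 7 days of knockdown, from a mean of 1.82 to 0.203 FPKM (limma, adjusted p = 0.00423). Against sh-Luci-3d, with a mean of 0.943 FPKM, GAP43 did not pass (limma, adjusted p = 0.0143). The sh-Ptbp1-3d libraries held 0.602, 0.987 and 3.88 FPKM of GAP43, so replicate 3 raised their mean. Replicate 3 of sh-Ptbp1-3d also stood apart in other neuron markers, with 11.5 FPKM of STMN2, which was listed at 0 in the other 8 libraries, and 2.15 FPKM of DCX. The same library held 14.99 FPKM of the glioma marker FABP7, which did not exceed 2.19 FPKM elsewhere. Of 9 immune markers CD68 alone exceeded 1 FPKM on average, with between 9.55 and 10.9 FPKM at 3 days and between 15.5 and 17.8 FPKM at 7 days, while CD3E and AIF1 were listed at 0 in every library.

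Of the 66 genes, 43 had a mean of at least 0.1 FPKM over the 9 libraries and were tested, and these 43 also reached 0.1 FPKM on average in each of the groups. All 10 genes of the interferon-induced list and 33 other members were among them. The remaining 23 did not exceed 0.132 FPKM in any library. TRIM10, TRIM40, TRIM42, TRIM48, TRIM49, TRIM51, TRIM58, TRIM60, TRIM64 and TRIM77 were listed at 0 in every library, and the other 13 not tested were TRIM6, TRIM15, TRIM29, TRIM31, TRIM43, TRIM50, TRIM54, TRIM55, TRIM61, TRIM63, TRIM67, TRIM71 and TRIM72. They include TRIM54, TRIM55 and TRIM63, the muscle RING finger genes, and TRIM71, a translational repressor of stem cells. A mean of at least 1 FPKM was reached by 39 members.

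**Figure D1:**
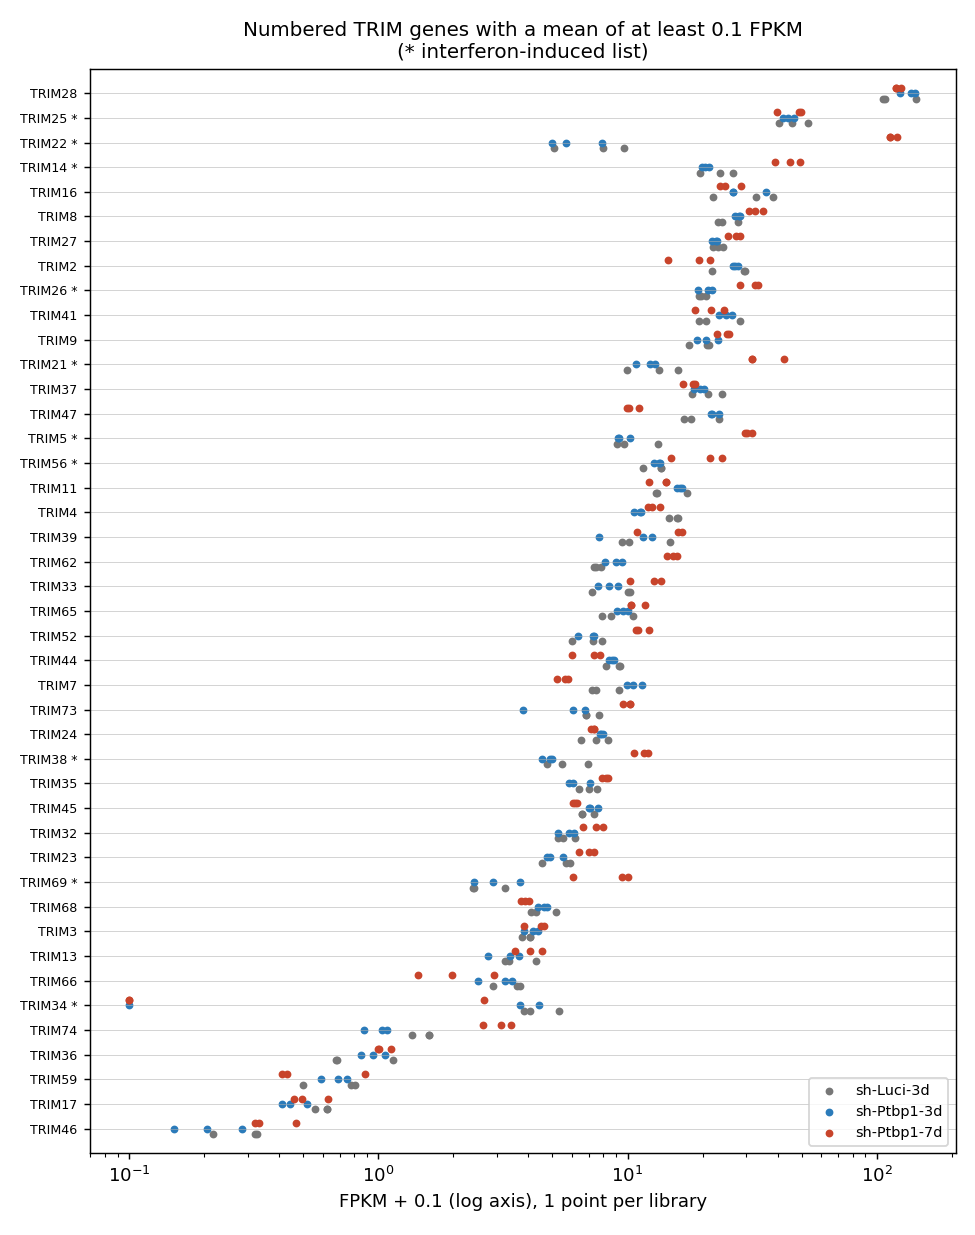
FPKM + 0.1 on a log axis of the 43 numbered TRIM genes that were tested, with 1 point per library, coloured by group, genes ordered by their mean and an asterisk for the interferon-induced list. TRIM28 leads in most libraries, and the sh-Ptbp1-7d points of TRIM22 lie far to the right of the 3 day points.

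TRIM28, also called KAP1, recruits silencing complexes to DNA through zinc finger proteins, and it had the highest mean of the family. Its level was 108, 105 and 144 FPKM in the control libraries, 143, 137 and 124 FPKM after 3 days of knockdown, and 119, 119 and 125 FPKM after 7 days. The groups overlapped. TRIM25, the ligase that modifies the RNA sensor RIG-I, ranked next by its mean at 3 days, with between 40.3 and 52.7 FPKM in the sh-Luci-3d libraries. The lowest tested level was that of TRIM46, which bundles microtubules in the proximal axon, with a mean of 0.191 FPKM over the 9 libraries.

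The first comparison asked what PTBP1 knockdown alone changed at 3 days. No TRIM gene passed an FDR below 0.05 in limma, and 5 of 43 had an unadjusted p under 0.05, as did 7.24% of all entries. Over all 15551 entries tested, 0.0322% passed this FDR and 0.0129% also passed a fold change above 2. The median difference in log2(FPKM + 0.1), sh-Ptbp1-3d minus sh-Luci-3d, was -0.04 over the 43 members, -0.12 over the interferon-induced list, -0.01 over the other members and 0.01 over all entries. Apart from TRIM34, described with its list, the members' log2 differences lay between -0.61 and 0.42. The groups' libraries did not overlap for 6 of 43 members, and the same held for 10.8% of all entries.

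TRIM4, a RING finger ligase of the B30.2 class, had the smallest adjusted p of the family in this comparison. Its level was 15.8, 15.7 and 14.6 FPKM in the control libraries, 11.2, 11.1 and 10.52 FPKM after 3 days of knockdown, and 12.4, 13.4 and 12.0 FPKM after 7 days. The sh-Ptbp1-3d libraries lay below all others. The log2 difference at 3 days was -0.48 with a standard error of 0.0823 (limma, adjusted p = 0.161). The count of 0 turned on 1 library, since without replicate 3 of sh-Luci-3d 5 members passed, namely TRIM4, TRIM74, TRIM7, TRIM28 and TRIM47, where 6.37% of all entries passed in the same setting, against 0.0322% with all libraries. TRIM4 and TRIM74 were then lower in sh-Ptbp1-3d, by log2 differences of -0.52 and -0.69, and TRIM7, TRIM28 and TRIM47 were higher, by 0.53, 0.33 and 0.35. None of these 5 is on the interferon-induced list, and they were set together here after their values were seen. TRIM4 alone of them falls outside the rule for naming genes.

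The second comparison asked what differed between 3 and 7 days of knockdown. Of the 10 interferon-induced TRIM genes, 8 rose past an FDR below 0.01 and none fell, and 6 of them also passed a fold change above 2. Of the 33 other members, 4 rose and 3 fell past this FDR, and 26 did not pass it. The split of the other members moved with the scaling, to 10 higher and 2 lower with TPM, 4 and 4 with median-ratio scaling and 4 and 5 with quantile normalization. In all, 12 members rose and 3 fell, where 20.3% of all entries rose and 15.5% fell. Past both thresholds 7 members rose and 1 fell, where 8.31% of all entries rose and 5.9% fell. The median log2 difference, sh-Ptbp1-7d minus sh-Ptbp1-3d, was 1.18 over the interferon-induced list, 0.17 over the other members and 0.09 over all entries. Libraries of the groups did not overlap for 29 of 43 members, and for 62.3% of all entries. Without replicate 3 of sh-Ptbp1-3d, 7 of the list and 4 of the other members rose and 2 other members fell.

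**Figure D2:**
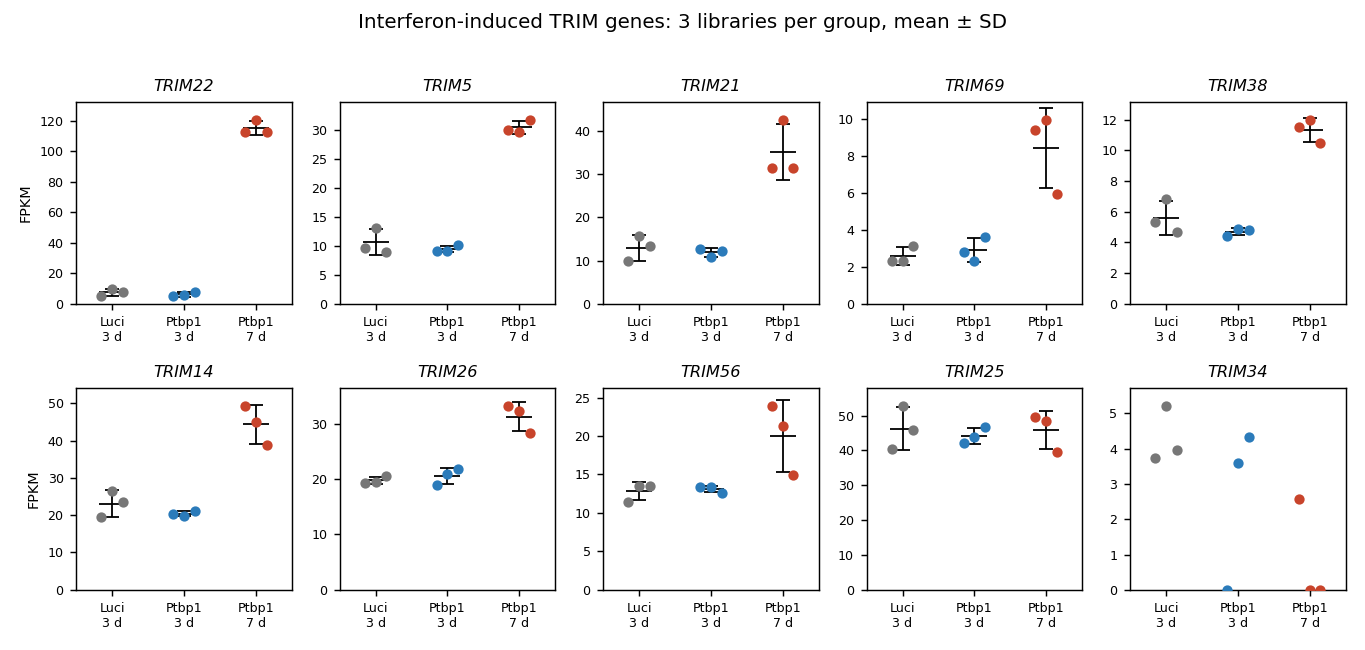
FPKM of the 10 interferon-induced TRIM genes, with 1 point per library for the 3 libraries of each group and black bars for the mean ± SD, left out for TRIM34, which is listed at 0 in some libraries. The 7 day points lie above every 3 day point for 8 genes, and not for TRIM25 and TRIM34.

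The largest rise belonged to TRIM22, an interferon-induced ligase that restricts several viruses. TRIM22 was at 4.97, 9.61 and 7.90 FPKM in the control libraries, 4.88, 5.56 and 7.81 FPKM after 3 days of knockdown, and 113, 120 and 113 FPKM after 7 days. All 7 day libraries lay far above all 3 day libraries, and the 3 day groups overlapped. The log2 difference between 7 and 3 days of knockdown was 4.25 with a standard error of 0.222 (limma, adjusted p = 1.4e-07). By its group mean TRIM22 ranked 28 among the members in sh-Ptbp1-3d and 2 in sh-Ptbp1-7d, behind TRIM28. The gene lies on chromosome 11 from 5689689 to 5737089 on the plus strand (GRCh38, GENCODE v29), inside the annotated span of TRIM5, which is on the minus strand from 5663557 to 5938619, and the genes share 0 exon bases.

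TRIM5, whose product binds the capsid of retroviruses, had the next largest rise of the list. Its level was 9.58, 13.1 and 9.001 FPKM in the control libraries, 9.18, 9.05 and 10.1 FPKM after 3 days of knockdown, and 29.9, 29.6 and 31.6 FPKM after 7 days. The 7 day libraries stood clear of the rest and close to each other. The log2 difference between 7 and 3 days of knockdown was 1.68 with a standard error of 0.129 (limma, adjusted p = 2.21e-06).

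TRIM21 is a cytosolic antibody receptor that marks antibody-bound viruses for degradation. TRIM21 was at 9.82, 15.8 and 13.3 FPKM in the control libraries, 12.8, 10.8 and 12.2 FPKM after 3 days of knockdown, and 31.5, 42.5 and 31.5 FPKM after 7 days, so that the 7 day libraries did not overlap the others. Its log2 difference was 1.54 with a standard error of 0.171 (limma, adjusted p = 3.19e-05). It lies on the same arm of chromosome 11, from 4384897 to 4393696. TRIM69, a ligase of the B30.2 class, was at 2.31, 2.33 and 3.13 FPKM in the control libraries, 2.78, 2.33 and 3.59 FPKM after 3 days of knockdown, and 9.36, 9.91 and 5.92 FPKM after 7 days. Replicate 3 was the lowest 7 day library and still lay above every 3 day library. The log2 difference of TRIM69 was 1.49 with a standard error of 0.219 (limma, adjusted p = 0.000245).

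TRIM38, a regulator of innate immune signalling, rose from 4.71 ± 0.235 to 11.3 ± 0.768 FPKM (SD, n = 3) between 3 and 7 days of knockdown. TRIM14, which lacks a RING finger and works as an adaptor of the mitochondrial protein MAVS, rose from 20.4 ± 0.669 to 44.4 ± 5.19 FPKM. The log2 differences were 1.25 for TRIM38 and 1.11 for TRIM14 (limma, adjusted p = 2.48e-05 and 2.51e-05). Both genes had no overlap between 7 day and 3 day libraries.

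The rises of TRIM26 and TRIM56 stayed under 2-fold. TRIM26, a ligase encoded in the major histocompatibility region, was at 19.0, 20.9 and 21.8 FPKM after 3 days of knockdown and 33.2, 32.4 and 28.3 FPKM after 7 days, with a log2 difference of 0.60 (limma, adjusted p = 0.000225). TRIM56, a ligase that acts in the STING and Toll-like receptor pathways, was at 13.4, 13.3 and 12.6 FPKM after 3 days of knockdown and 23.9, 21.3 and 14.9 FPKM after 7 days. Replicate 3 of sh-Ptbp1-7d lay nearer to the 3 day libraries than to the other 7 day ones. The log2 difference of TRIM56 was 0.58 with a standard error of 0.152 (limma, adjusted p = 0.00875), and it missed the FDR of 0.01 in 13 of 22 alternative settings, where its adjusted p ranged up to 0.0407.

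TRIM25 and TRIM34 did not pass the test. TRIM25 was at 42.1, 44.0 and 46.6 FPKM after 3 days of knockdown and 49.6, 48.5 and 39.6 FPKM after 7 days, and the groups overlapped. Its log2 difference was 0.05 with a standard error of 0.114 (limma, adjusted p = 0.75), and the sign turned to -0.04 with median-ratio scaling.

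TRIM34, a close relative of TRIM5, was at 3.75, 5.21 and 3.95 FPKM in the control libraries. It was listed at 0, 3.59 and 4.32 FPKM after 3 days of knockdown and at 2.56, 0 and 0 FPKM after 7 days. The readthrough gene TRIM6-TRIM34, which shares 83% of the exon length of TRIM34, was listed at 2.48 FPKM in replicate 1 of sh-Ptbp1-3d and at 1.93 and 1.79 FPKM in replicates 2 and 3 of sh-Ptbp1-7d, and at 0 in the other libraries. The 2 entries were thus never both above 0 in 1 library, and the table does not show which transcript the fragments came from. With both summed, an alternative chosen after seeing the data, the log2 difference was -0.68 between 7 and 3 days of knockdown (limma, adjusted p = 0.0223) and -1.005 for sh-Ptbp1-7d minus sh-Luci-3d (limma, adjusted p = 0.00275).

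**Figure D3:**
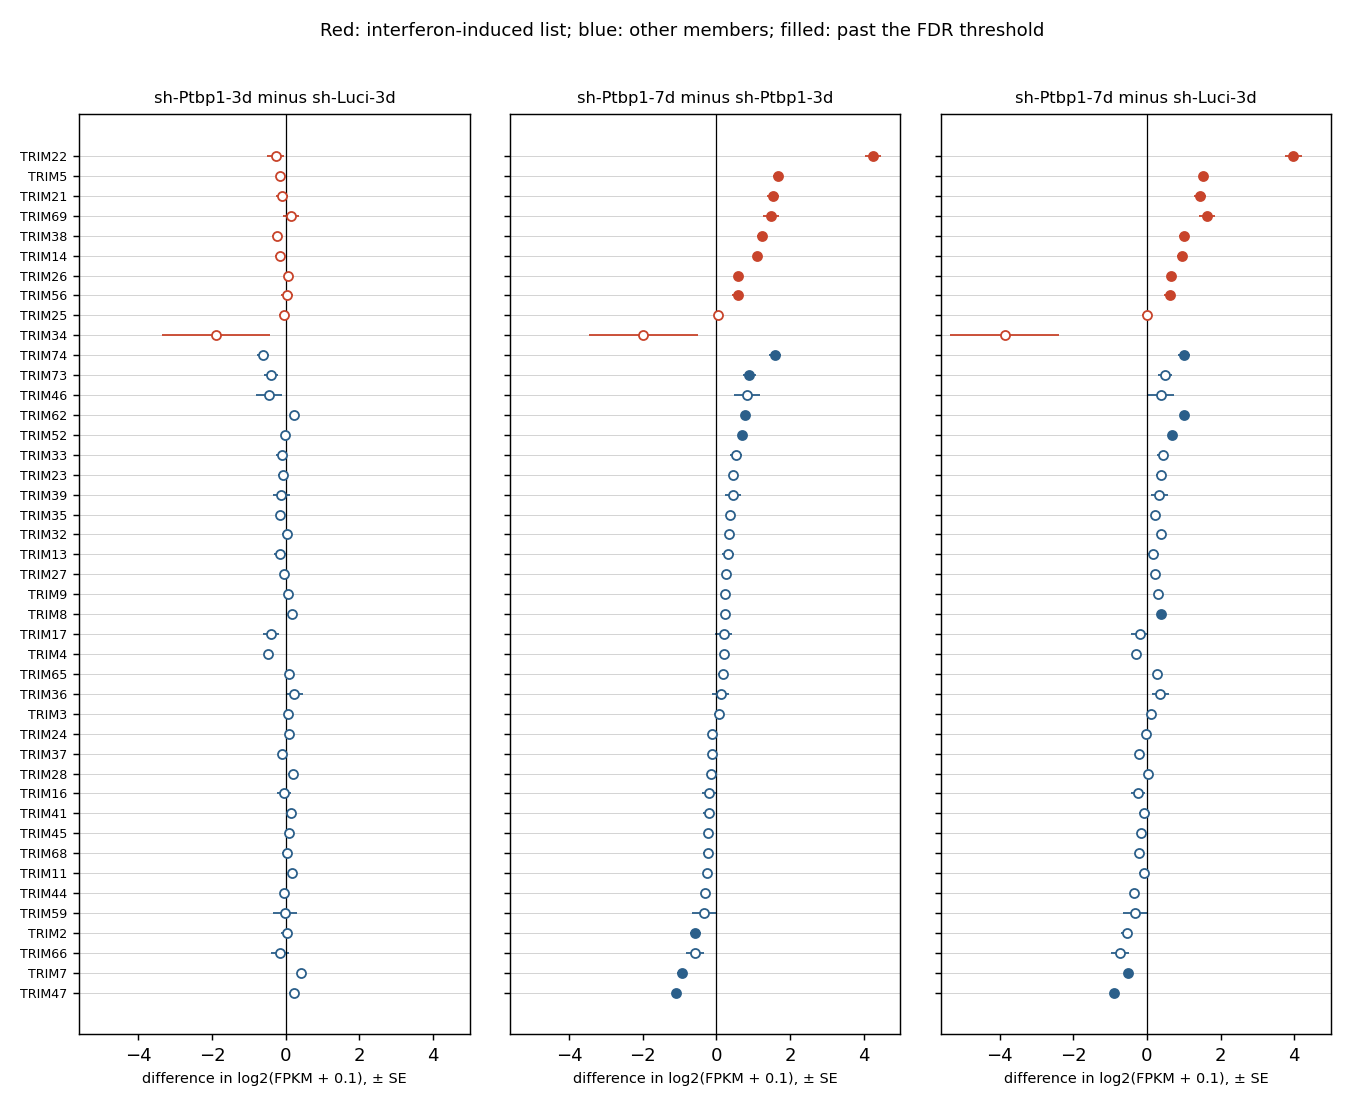
Differences in log2(FPKM + 0.1) of the 43 tested members in the 3 comparisons, with bars for the limma standard error, red for the interferon-induced list, blue for other members, and filled points past the FDR threshold (0.05 at 3 days, 0.01 for the 7 day comparisons). No point is filled at 3 days, and in both 7 day comparisons 8 of the 10 red points are filled and to the right of 0.

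Setting sh-Ptbp1-7d against sh-Luci-3d gave the knockdown, the added days and the longer time in induction medium together. The same 8 genes of the interferon-induced list rose past an FDR below 0.01, 5 of them by more than 2-fold, and none fell. TRIM56 missed this FDR in 12 of 22 alternative settings, where its adjusted p ranged up to 0.0331, and 1 listed gene fell with TRIM34 summed with its readthrough gene, without replicate 1 of sh-Ptbp1-7d or at an FDR of 0.05. Of the 33 other members 4 rose and 2 fell, against 3 and 6 with median-ratio scaling and 4 and 6 with quantile normalization. Over the whole family 12 rose and 2 fell, where 20.6% of all entries rose and 15% fell. Past both thresholds 6 members rose and 0 fell, where 8.93% of all entries rose and 5.68% fell. The rises past both numbered 4 with a pseudocount of 1, median-ratio scaling or quantile normalization. They also numbered 4 without replicate 3 of sh-Luci-3d, and 8 with TPM. The median log2 difference, sh-Ptbp1-7d minus sh-Luci-3d, was 0.98 over the interferon-induced list, 0.12 over the other members and 0.10 over all entries. Libraries did not overlap for 27 of 43 members and for 55.9% of all entries. Both 7 day comparisons share the sh-Ptbp1-7d libraries, and 13 members passed in both. TRIM22 had a log2 difference of 3.97, TRIM69 of 1.64, TRIM5 of 1.53, TRIM21 of 1.44, TRIM38 of 1.01, TRIM14 of 0.94, TRIM26 of 0.66 and TRIM56 of 0.62.

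Summed over the interferon-induced list, the level was 145.6 ± 19.4 FPKM in the control libraries, 136 ± 8.16 FPKM after 3 days of knockdown and 342.9 ± 25.5 FPKM after 7 days (SD, n = 3). The other 56 members summed to 454.9 ± 33.3, 472.9 ± 22.9 and 464.8 ± 16.7 FPKM, and their groups overlapped. The list thus made up between 20.7% and 27.9% of all TRIM FPKM in the 3 day libraries and between 41.3% and 43.1% in the 7 day libraries. TRIM22 alone went from between 0.782% and 1.62% to between 13.6% and 14.8%. A change in the share of cells expressing a gene and a change in RNA per cell cannot be told apart in these bulk libraries.

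**Figure D4:**
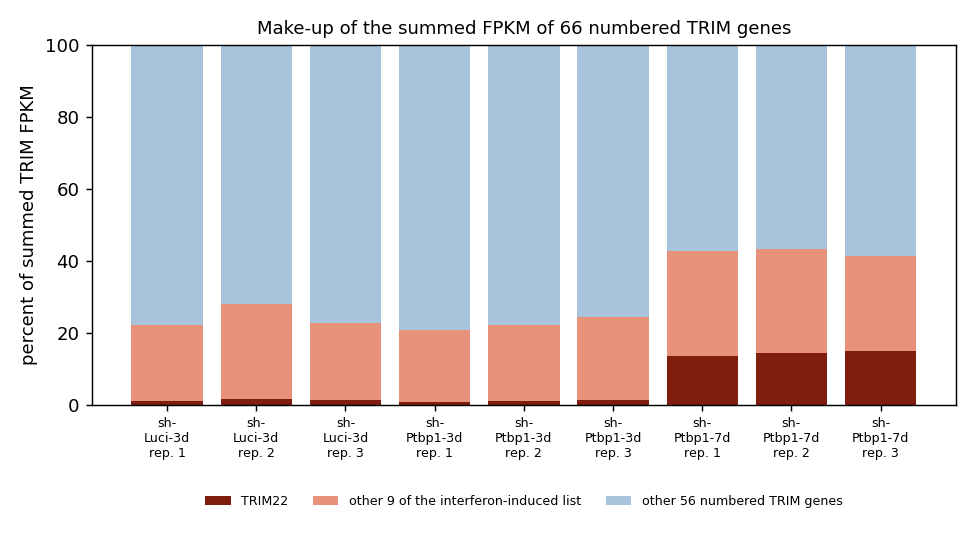
Percent of the summed FPKM of the 66 numbered TRIM genes taken by TRIM22, by the other 9 genes of the interferon-induced list and by the other 56 members, with 1 bar per library. The list takes between 41.3% and 43.1% in the 3 libraries of sh-Ptbp1-7d and at most 27.9% in the 3 day libraries.

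Promoter windows were read for the members to show which of the interferon-induced genes hold the core letters of the interferon-stimulated response element, the site of the STAT and IRF factors that interferon activates. RefSeq windows (GRCh38.p14) of 250 bases before to 50 bases after the start were matched by symbol for 52 of 66 members and for 9 of the 10 listed genes, all but TRIM22. The letters GAAANNGAA were searched on both strands, where the reverse complement is TTCNNTTTC. At least 1 window held them in 6 of 9 listed genes (66.7%), in 3 of 24 other tested members (12.5%) and in 9.86% of 27305 genes, or 8.11% of all 35116 windows. The stretches of the 6 genes are given 5′ to 3′ on the gene's strand, with the matched letters in capitals.
TRIM5, chr11:5685062-5685130, minus strand: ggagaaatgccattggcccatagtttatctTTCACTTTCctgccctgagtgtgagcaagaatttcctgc
TRIM14, chr9:98119209-98119277, minus strand: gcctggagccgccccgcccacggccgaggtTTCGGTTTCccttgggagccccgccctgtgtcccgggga
TRIM21, chr11:4393664-4393693, minus strand: tctgagcgGAAACTGAAAGTGAAataggga
TRIM26, chr6:30213555-30213629, minus strand: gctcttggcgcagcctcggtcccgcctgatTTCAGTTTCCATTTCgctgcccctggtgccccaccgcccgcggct
TRIM34, chr11:5624882-5624950, plus strand: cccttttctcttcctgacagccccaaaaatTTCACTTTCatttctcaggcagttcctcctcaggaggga
TRIM69, chr15:44736437-44736505, plus strand: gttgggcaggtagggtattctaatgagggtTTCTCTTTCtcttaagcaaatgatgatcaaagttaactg

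Counted from the start at position 0, with negative positions before it, the match began at -26 in TRIM5, -25 in TRIM14, -89 in TRIM34 and -61 in TRIM69. TRIM21 held a pair of overlapping matches at 17 and 23, and TRIM26 held such a pair at -193 and -187. The 5 genes TRIM5, TRIM14, TRIM21, TRIM26 and TRIM69 were among the 8 that rose, while TRIM34 was not, and its match stood in 1 of its windows only. TRIM38 and TRIM56 rose and TRIM25 did not, and no window of these 3 held the letters. The 3 other members with a match were TRIM2, TRIM16 and TRIM44, of which TRIM2 fell and TRIM16 and TRIM44 did not pass the test. The letters TTCNNNGAA, the core of the gamma-activated site and their own reverse complement, stood in a window of 0 of 9 listed genes, 5 of 24 other tested members and 9.38% of all genes, and overlapped no response element match in a member's window. A match is a description of the letters and not of a bound site.

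Among the other members, TRIM74 and TRIM73 had the largest rises between 3 and 7 days of knockdown. They are related copies on chromosome 7, where 95.6% of the 31-base words of TRIM74 transcripts also occur in TRIM73 and 25.2% of those of TRIM73 occur in TRIM74, so the split between them is uncertain. TRIM74 was at 1.5, 1.503 and 1.26 FPKM in the control libraries, 0.989, 0.932 and 0.777 FPKM after 3 days of knockdown, and 3.30, 2.53 and 2.99 FPKM after 7 days. The 3 groups did not overlap. The log2 difference between 7 and 3 days of knockdown was 1.60 for TRIM74 and 0.89 for TRIM73 (limma, adjusted p = 1.59e-05 and 0.00198), and 1.04 for their sum (limma, adjusted p = 0.000399). Against sh-Luci-3d it was 0.99 for TRIM74 (limma, adjusted p = 0.000468), and TRIM73 did not pass (limma, adjusted p = 0.0424).

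TRIM62, a ligase linked to epithelial cell polarity, was at 7.76, 7.35 and 7.21 FPKM in the control libraries, 8.85, 9.42 and 8.06 FPKM after 3 days of knockdown, and 15.7, 15.2 and 14.3 FPKM after 7 days. The groups did not overlap, with sh-Luci-3d lowest and sh-Ptbp1-7d highest. The log2 difference was 0.77 against sh-Ptbp1-3d and 1.01 against sh-Luci-3d (limma, adjusted p = 4.62e-05 and 6.65e-06). TRIM52 and TRIM8 are named here after their values were seen. TRIM52 rose in both 7 day comparisons, from 6.89 ± 0.548 FPKM after 3 days of knockdown to 11.2 ± 0.740 FPKM after 7 days (SD, n = 3), with a log2 difference of 0.70 (limma, adjusted p = 0.00069). TRIM8, a regulator of cytokine signalling, passed against sh-Luci-3d, with a log2 difference of 0.39 (limma, adjusted p = 0.00343) that was lost in 7 of 22 alternative settings, where its adjusted p ranged up to 0.0246, and not against sh-Ptbp1-3d, with 0.24 (limma, adjusted p = 0.0451).

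**Figure D5:**
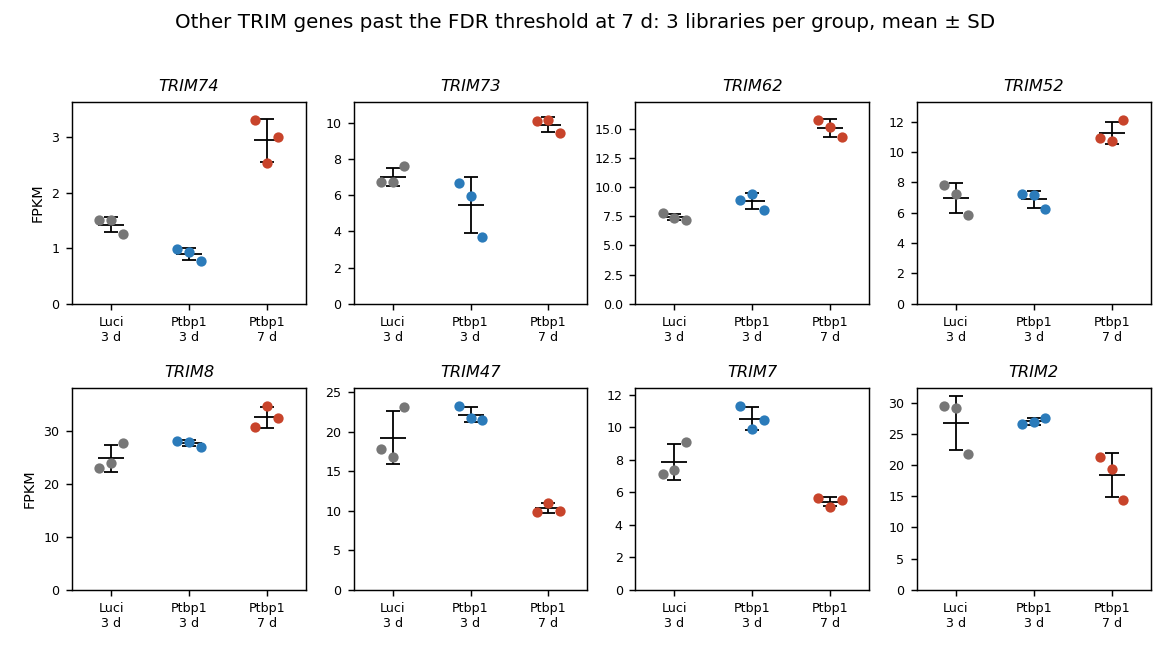
FPKM of the 8 members outside the interferon-induced list that passed the FDR of 0.01 in a 7 day comparison, with 1 point per library for the 3 libraries of each group and black bars for the mean ± SD. The 7 day points of TRIM74, TRIM73, TRIM62, TRIM52 and TRIM8 lie above, and those of TRIM47, TRIM7 and TRIM2 below, every 3 day point.

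The members that fell were TRIM47, TRIM7 and TRIM2. TRIM47, a B30.2 ligase, was at 17.8, 16.8 and 23.1 FPKM in the control libraries, 23.2, 21.7 and 21.5 FPKM after 3 days of knockdown, and 9.85, 10.99 and 10.02 FPKM after 7 days. The 7 day libraries lay below all others. The log2 difference was -1.10 against sh-Ptbp1-3d and -0.88 against sh-Luci-3d (limma, adjusted p = 2.2e-05 and 0.000107), and 48.8% of the 31-base words of its transcripts also occur in AC087289.5.

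TRIM7, which binds glycogenin, the primer of glycogen synthesis, was at 7.12, 7.36 and 9.12 FPKM in the control libraries, 11.3, 9.88 and 10.4 FPKM after 3 days of knockdown, and 5.66, 5.11 and 5.52 FPKM after 7 days. Its 3 groups did not overlap, with sh-Ptbp1-3d highest and sh-Ptbp1-7d lowest. The log2 difference was -0.94 against sh-Ptbp1-3d and -0.52 against sh-Luci-3d (limma, adjusted p = 5.58e-05 and 0.00307). The call against sh-Luci-3d was lost in 2 of 22 alternative settings, where the limma adjusted p of TRIM7 ranged up to 0.0158. TRIM2, an NHL repeat ligase of neurofilament light chain, was at 29.5, 29.2 and 21.8 FPKM in the control libraries, 26.5, 27.0 and 27.6 FPKM after 3 days of knockdown, and 21.3, 19.3 and 14.4 FPKM after 7 days. Its log2 difference of -0.57 between 7 and 3 days of knockdown passed (limma, adjusted p = 0.00879), but was lost in 10 of 22 alternative settings, among them leaving out any 1 library of sh-Ptbp1-3d, and its adjusted p ranged up to 0.0428. Against sh-Luci-3d it was -0.55 and did not pass (limma, adjusted p = 0.0112).

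By class, the 4 TIF1 genes, which read chromatin with a PHD finger and bromodomain, had no call in any comparison of the main fit. Over all entries 20.3% rose and 15.5% fell between 3 and 7 days of knockdown, so counts in classes this small are not read as traits of a class. TRIM28 had a log2 difference of -0.15 between 7 and 3 days of knockdown, TRIM24 of -0.11, TRIM33, a regulator of SMAD4, of 0.53 and TRIM66 of -0.58 (limma, adjusted p = 0.306, 0.386, 0.0144 and 0.0609). TRIM33 passed here in 6 of 22 alternative settings, and TRIM66 passed against sh-Luci-3d in 5 of 22. Of the NHL repeat genes, 3 of 4 were tested, and 1, TRIM2, was called. TRIM3 and TRIM32 had log2 differences of 0.06 and 0.36 (limma, adjusted p = 0.688 and 0.0217), and the sign of TRIM3 turned with median-ratio scaling and quantile normalization. Of the 7 COS box genes, whose products bind microtubules, TRIM9, TRIM36 and TRIM46 were tested and none was called. TRIM9, a neuronal ligase of netrin signalling, was at 19.8 ± 2.02, 20.8 ± 2.04 and 24.4 ± 1.46 FPKM (SD, n = 3) in the controls and after 3 and 7 days of knockdown. TRIM13 and TRIM59, which span membranes, and TRIM23, TRIM37 and TRIM45, each with a C-terminal domain of its own class, had no call. Of the 5 members without a RING finger 4 were tested, and 1, TRIM14, was called. Another of them, TRIM16, was at 30.9 ± 8.35, 29.6 ± 5.53 and 25.5 ± 2.62 FPKM, and 57% of its 31-base words also occur in other genes.

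Family members with other kinds of symbol were counted as a list of 11, of which 6 were tested, and 1 rose and 1 fell in both 7 day comparisons, shares near those of all entries, of which 20.3% rose and 15.5% fell between 3 and 7 days of knockdown. They were named after their values were seen. PML, the interferon-induced scaffold of nuclear bodies, was at 27.6, 34.2 and 33.1 FPKM in the control libraries, 29.3, 30.6 and 31.1 FPKM after 3 days of knockdown, and 67.4, 63.7 and 63.6 FPKM after 7 days. MID1, a microtubule-bound ligase whose best known substrate is the catalytic subunit of the phosphatase PP2A, was at 17.4, 15.3 and 11.7 FPKM, 13.4, 13.7 and 12.8 FPKM, and 5.98, 5.73 and 4.48 FPKM in the same order of groups. Neither gene's 7 day libraries overlapped the 3 day libraries. The log2 difference between 7 and 3 days of knockdown was 1.09 for PML and -1.30 for MID1 (limma, adjusted p = 3.2e-06 and 4.09e-05).

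A list of 22 interferon-stimulated genes outside the family was set beside the TRIM genes, with no test between the lists. Of these 22 genes none passed at 3 days, where the median log2 difference was -0.16, and 21 rose between 3 and 7 days of knockdown, with a median of 1.98, where 20.3% of all entries rose. The largest were XAF1, a pro-apoptotic factor, with a log2 difference of 6.10, OAS2, a double-stranded RNA sensor, with 4.17, IFI6 with 3.81, and RSAD2, the antiviral enzyme viperin, with 3.66. The transcription factor IRF7 was the 1 gene that did not pass, with 0.605 ± 0.332 and 0.808 ± 0.529 FPKM (SD, n = 3). A RefSeq window held GAAANNGAA for 11 of 17 of these genes and TTCNNNGAA for 6 of 17, where 9.86% and 9.38% of all genes did.

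Of the 13 genes of RNA and DNA sensing, in whose pathway TRIM25, TRIM14 and TRIM56 act, 12 were tested, and 6 rose and 2 fell between 3 and 7 days of knockdown, with a median log2 difference of 0.48, where 20.3% of all entries rose and 15.5% fell. The sensors IFIH1, DDX58 and DHX58 rose, with log2 differences of 2.48, 1.75 and 1.46. MAVS, the adaptor downstream of IFIH1 and DDX58, fell from 12.9 ± 1.13 to 6.78 ± 0.903 FPKM (SD, n = 3), with a log2 difference of -0.93 (limma, adjusted p = 4.98e-05). The kinase gene IKBKE was the other that fell, with a log2 difference of -0.90 (limma, adjusted p = 0.000219), and it was named after its values were seen. Levels of VIM, CD44, EGFR, TUBB3 and GAP43 were lower at 7 days, and those of MAP2, SNAP25, S100B, SOX2 and CD68 were higher. The part that these levels had in the differences above was not tested.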

How the data were processed

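RNA-seq of U251 cells gave 9 libraries, 3 per group, which were grouped by their labels. FPKM values per gene and library were deposited by the authors, and the submitters' processing notes name HISAT2 and GRCh38. The counting program, library strand and depth are not given in the sources used here. Of 1965 ratios of low values, 0.254% fell on the commonest value, so whole-read steps were not found and count tests were not used. The positions of the assembled loci, another kind of value that the authors deposited, were compared with GENCODE v29 to check the build, and 49.6% of 43315 exons were equal. The matching of 31-base words used GENCODE v29 transcripts on both strands.

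For the 15551 entries with a mean of at least 0.1 FPKM, log2(FPKM + 0.1) was fitted in limma (3.58.1, under R 4.3.3) as 1 model of all 9 libraries with an intensity trend. The Benjamini-Hochberg adjustment ran over all entries tested. The fold change on this scale understates changes of low genes. The FDR was 0.05 at 3 days and 0.01 for the 7 day comparisons, with a fold change above 2 counted apart. A two-sided exact permutation test of 3 libraries against 3 cannot go below 0.1. The test was checked on simulated data. Python 3.11.15 and matplotlib 3.10.9 were used for figures.

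The members and lists were chosen with earlier results of these data known. Genes named were PTBP1, the interferon-induced list, members past the FDR with a mean of at least 1 FPKM (up to 8 rises and 8 falls per comparison), the 5 members of highest mean, the tested TIF1, NHL and COS box genes, and up to 4 examples of each other list. Proteins were not analysed here.

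Alternatives were other pseudocounts, filters, scalings and FDR thresholds, no trend, the 2 groups alone, no assembled loci, a replicate block and leaving out each library.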

Additional observations from a re-analysis of the deposited data

How the results depend on the processing

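Under 22 alternatives, 1 of them added after seeing the data, TRIM22, TRIM5, TRIM21, TRIM69, TRIM38, TRIM14, TRIM26, TRIM62, TRIM52 and TRIM74 kept both their direction and their 7 day calls (TRIM74 under 21), as did TRIM47, PML and MID1. The median of the interferon-induced list stayed between 1.09 and 1.28 between 3 and 7 days of knockdown. Scaling moved the median log2 difference of all entries in that comparison from 0.09 to 0.19 with TPM, 0.01 with median-ratio scaling and -0.01 with quantile normalization, and the medians of the other members moved with it. They were 0.271, 0.084 and -0.03 in that order against sh-Ptbp1-3d and 0.072 with a pseudocount of 1, and 0.198, 0.022 and 0 against sh-Luci-3d. The other members called numbered 12 with TPM, 10 higher and 2 lower, and 14 at an FDR of 0.05 against sh-Ptbp1-3d, and 10 with quantile normalization, 4 higher and 6 lower, and 16 at an FDR of 0.05 against sh-Luci-3d, where all members called were then 25.

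Leaving out 1 library gave between 0 and 5 members called at 3 days, between 6 and 12 other members against sh-Ptbp1-3d and between 4 and 10 against sh-Luci-3d. The highest of each, 5, 12 and 10, came without replicate 3 of sh-Luci-3d. The medians ranged from -0.231 to 0.031 for the interferon-induced list at 3 days, and for the other members from -0.02 to 0.058 at 3 days, from 0.074 to 0.206 against sh-Ptbp1-3d and from 0.068 to 0.137 against sh-Luci-3d. With 1 library left out its group has 2, and its spread is taken from all groups.

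Signs turned only in members that did not pass. Against sh-Ptbp1-3d, TRIM25 was at -0.039 with median-ratio scaling, TRIM3 at -0.025 with it and -0.093 with quantile normalization, and TRIM36 at -0.117 with the latter. Against sh-Luci-3d, TRIM25 was at 0.07 and TRIM24 at 0.053 with TPM, TRIM28 at -0.061 with median-ratio scaling and TRIM3 at -0.048 with quantile normalization. Without 1 library TRIM25 ranged from -0.01 to 0.15 and, against sh-Luci-3d, from -0.105 to 0.092, TRIM28 from -0.04 to 0.184 and TRIM24 from -0.119 to 0.061. The causes were not tested.

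Replicate numbers are shared between groups, but same-numbered libraries did not deviate together, with correlations between -0.03 and 0.05. With the replicate block 16 members passed in each 7 day comparison and 0 at 3 days, and PTBP1 at 3 days had an adjusted p of 0.0583 in limma. With the depth unknown, no counting error can be given for low values.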

Other observations

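Enzymes that activate and conjugate ubiquitin, together with the ISG15 enzymes UBA7 and UBE2L6, were described by a list of 17. None passed at 3 days. Between 3 and 7 days of knockdown 4 rose and 1 fell, with a median log2 difference of 0.13 beside 0.09 over all entries, of which 20.3% rose and 15.5% fell. The largest rises were those of the ISG15 pathway, in which UBE2L6, the conjugating enzyme for ISG15, went from 13.9 ± 3.66 to 190 ± 7.69 FPKM (SD, n = 3) and UBA7, the enzyme that activates ISG15, from 4.199 ± 0.340 to 40.8 ± 0.949 FPKM. Their log2 differences were 3.80 and 3.25 (limma, adjusted p = 6.07e-07 and 7.23e-08). UBE2W rose by a log2 difference of 0.70, and UBA1, the main ubiquitin activating enzyme, fell by 0.33 on the log2 scale, from 130.3 ± 1.78 to 103.6 ± 4.40 FPKM. UBA1 was named as the 1 that fell, although the rise of UBE2K, 0.36, was larger in size.

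The partners through which TRIM28 silences chromatin were described by a list of 14 genes. None passed at 3 days, and between 3 and 7 days of knockdown 4 rose and 4 fell, with a median log2 difference of -0.03, where 20.3% of all entries rose and 15.5% fell, while TRIM28 itself did not pass. CHD3, a helicase of the NuRD complex, had the largest fall, from 49.9 ± 1.97 to 16.3 ± 2.57 FPKM (SD, n = 3), with a log2 difference of -1.62 (limma, adjusted p = 1.58e-06). CBX5, which encodes heterochromatin protein HP1 alpha, had a log2 difference of -0.996, and HDAC1, a histone deacetylase, of -0.66. MPHOSPH8, a reader of the HUSH silencing complex, was the largest rise, with a log2 difference of 0.75.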
